A study of Rattus norvegicus with 12 samples.

Results

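The inner mitochondrial membrane carries 4 respiratory complexes, I to IV, and the ATP synthase, complex V, and the nuclear genes for their subunits were followed here in rat kidney cortex. They were taken as every probe set whose array annotation names 1 gene with a symbol beginning with Nduf, Sdha to Sdhd, Uqcr, Cox4 to Cox8 or Atp5. That rule gave 101 probe sets for 90 genes, of 31042 probe sets on the array. Complex I had 44 probe sets for 40 genes, complex II 10 for 8, complex III 8 for 7, complex IV 19 for 19 and complex V 20 for 16. The Nduf and Sdh symbols also caught assembly factors (Ndufaf and Sdhaf genes), which build a complex and are not part of it. Ndufa4 and Ndufa4l2 were counted with complex IV, where the NDUFA4 protein is found, and Cox7a2l, a factor that joins complexes III and IV, was counted there as well. The pseudogene Cox6c-ps1 also came under the rule and is among the complex IV probe sets. A further 7 probe sets that name several genes were left out.

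The arrays came from male rat littermates injected before or after puberty, in 4 groups of 3 arrays. The 10-week diabetic group (DM) was given intravenous streptozocin (65 mg/kg), which destroys pancreatic beta cells, when 4 weeks old, and the 20-week diabetic group when 14 weeks old. Insulin palmitate pellets followed 3 days later, blood glucose was held at 350 to 450 mg/dl, and cortex was taken after 6 weeks. The nondiabetic groups (ND) had a vehicle injection and a palmitate vehicle pellet on the same schedule. All diabetic rats thus had both the toxin and, by their labels, an insulin pellet, except that the label of diabetic 10-week replicate 1 names a vehicle pellet. The labels give no strain. Nothing in them says how many rats stand behind an array, so p-values measure the spread between these arrays.

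Complex I passes electrons from NADH to ubiquinone, complex II passes them from succinate, complex III hands them to cytochrome c, and complex IV gives them to oxygen. Complexes I, III and IV pump protons, and complex V lets the protons back through its rotor to make ATP. The proximal tubule, which makes up most of the cortex, depends on this chain for the energy of sodium reabsorption. The subunits that mitochondrial DNA encodes do not come under the symbols used here. Nuclear subunit genes are known to be driven in part by NRF-1, by GABP of the ETS family and by YY1.

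Promoters are shown for 3 genes named in the results, because they hold different sets of those factors' motif cores. Each window runs from 250 bases before to 50 bases after the gene's start (RefSeq, build GRCr8, plus strand) and capitals mark the matches. Atp5me (chr14:1464610-1464909), an ATP synthase subunit, holds the NRF-1 core GCGCNTGCG on both strands at overlapping places and 1 ETS core CCGGAAG, read on the other strand. Ndufs6 (chr1:31797150-31797449), a complex I subunit, holds 1 NRF-1 core and 1 YY1 core AAGATGGCG. Ndufa4l2 (chr7:65241919-65242218) holds none of the 3.
Atp5me: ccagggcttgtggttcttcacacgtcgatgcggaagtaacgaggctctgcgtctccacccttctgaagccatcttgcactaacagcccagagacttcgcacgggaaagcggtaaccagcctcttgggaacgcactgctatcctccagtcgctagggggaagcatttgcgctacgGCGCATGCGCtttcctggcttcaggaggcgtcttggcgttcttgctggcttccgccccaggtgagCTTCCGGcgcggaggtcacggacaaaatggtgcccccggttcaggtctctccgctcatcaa
Ndufs6: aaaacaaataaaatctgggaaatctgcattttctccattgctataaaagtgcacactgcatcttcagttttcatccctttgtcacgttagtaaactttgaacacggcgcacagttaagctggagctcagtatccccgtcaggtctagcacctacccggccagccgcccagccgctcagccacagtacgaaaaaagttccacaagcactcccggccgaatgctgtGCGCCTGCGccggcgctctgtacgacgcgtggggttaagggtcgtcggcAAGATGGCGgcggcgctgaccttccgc
Ndufa4l2: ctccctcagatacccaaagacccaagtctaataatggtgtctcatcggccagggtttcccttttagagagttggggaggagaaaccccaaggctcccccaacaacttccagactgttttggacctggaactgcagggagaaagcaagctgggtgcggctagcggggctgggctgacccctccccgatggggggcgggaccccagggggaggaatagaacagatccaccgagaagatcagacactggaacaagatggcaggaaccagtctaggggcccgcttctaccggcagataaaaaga

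Of the 90 genes, 82 had a promoter in the RefSeq table. The NRF-1 core was in 22 of them (26.8%), against 6.52% of 27457 promoters of all genes and 8.25% of 19005 promoters of protein-coding genes, searched on both strands. The ETS core was in 25 (30.5%), against 9.63% and 11.6%. The YY1 core was in 11 (13.4%), against 1.99% and 2.33%. At least 1 core was in 48 promoters and 34 had none. A match describes letters in the window and is not evidence of binding.

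**Figure D1:**
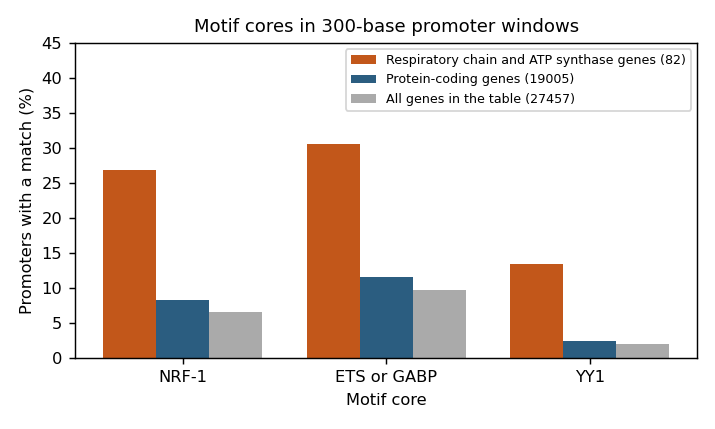
Percentage of promoter windows with an exact match to each motif core, for the 82 matched genes and for both backgrounds. All 3 cores sit in a larger share of the respiratory chain and ATP synthase promoters (26.8%, 30.5% and 13.4%) than of either background.

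Of the 101 probe sets, 95 (85 genes) were bright enough to be tested. The 6 that were not are Cox4i2, Cox6a2, Cox6b2, Cox7b2 and Cox8b, isoforms known from lung, muscle or testis, and 1 of 2 probe sets for Sdhaf2. Mean signal for Cox6a2 in the 4 groups lay between 14.9 and 26.9 and for Cox8b between 8.99 and 48.0, with SDs of the same order. Their ubiquitous counterparts were tested. Markers of striated muscle, where some of those isoforms are abundant, did not pass the filter either (0 of 5). Cox7a1, another isoform of complex IV, was dim but did pass, at 68.7 to 217.5 over the 12 arrays. All 9 proximal tubule markers passed, with summed signals of 105700 to 125200 over the 12 arrays and ranges that overlap between all groups. Across arrays, correlations of log2 signal ran from 0.941 to 0.976.

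Cox4i1, a nuclear-encoded subunit of cytochrome c oxidase outside its catalytic core, read 18700, 19460 and 18320 in nondiabetic and 18480, 19720 and 18880 in diabetic 10-week rats. At 20 weeks Cox4i1 read 17860, 18000 and 20750 in nondiabetic and 18500, 18720 and 18880 in diabetic rats. The groups overlap at both ages, with log2 differences (diabetic minus nondiabetic) of 0.015 ± 0.070 and -0.0097 ± 0.070 (SE). Atp5f1b, the catalytic beta subunit of ATP synthase, had mean signals of 27470 ± 2490 and 27630 ± 1850 (SD, n = 3) at 10 weeks in nondiabetic and diabetic rats, and 27670 ± 3200 and 28250 ± 742 at 20 weeks. Sdha, the flavoprotein of complex II, had log2 differences of 0.081 ± 0.086 at 10 weeks and -0.0046 ± 0.086 at 20 weeks.

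In diabetes begun before puberty, no probe set of the 95 passed the test (adjusted p under 0.05, limma), against 0.306% of all 18625 probe sets tested. At an unadjusted p under 0.05 there was 1, Ndufb8, against 10.9% of all probe sets. Most lay in 1 direction: 77 of 95 (81.1%) were higher in diabetic rats, where 46.3% of all probe sets were, with a median log2 difference of 0.079 against -0.021. With quantile normalization 60 of 95 were higher, and 60 without diabetic replicate 2, where the median was 0.030. On the deposited scale all 5 complexes had medians above 0: 0.11 in complex I (37 of 44 higher), 0.049 in complex II (7 of 9), 0.11 in complex III (7 of 8), 0.035 in complex IV (11 of 14) and 0.045 in complex V (15 of 20). With quantile normalization the medians were 0.049, 0.0031, 0.040, -0.012 and -0.00029 in the same order, so that those of complexes IV and V turned below 0. With median centring of each array 90 of 95 were higher, and the median of all probe sets shifted to 0.089. These genes are not independent, so the counts describe the arrays and carry no test.

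Diabetic replicate 2 stood highest at 10 weeks. Its median deviation over the 95 probe sets was 0.15 on the log2 scale, with 84 above their own mean over 12 arrays, while the other diabetic 10-week arrays were both at 0.027. The nondiabetic 10-week arrays lay at -0.050, 0.047 and 0.0087, so the groups overlap. Over all probe sets tested, replicate 2 was at -0.011. That array also had the highest 3' to 5' signal ratios of the 10-week arrays for the GAPDH control (1.5, others 1.41 to 1.46) and the beta-actin control (8.57, others 6.3 to 7.47), signs of RNA quality whose part was not tested. In complex I the diabetic 10-week arrays, at 0.057, 0.17 and 0.027, all lay above the nondiabetic ones, at -0.087, 0.00027 and 0.019. In complex III the diabetic 10-week arrays, at 0.075, 0.10 and 0.061, did so too, against -0.039, 0.021 and 0.034.

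**Figure D2:**
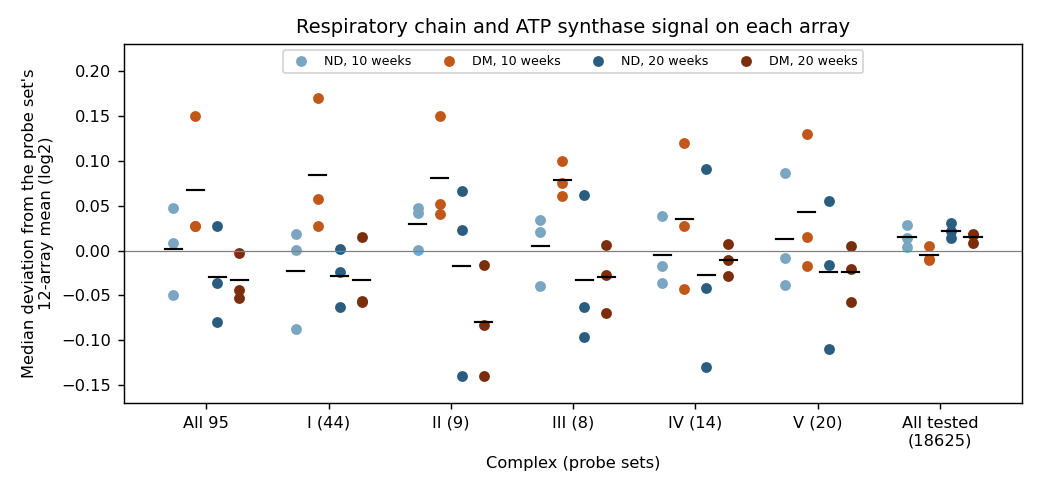
Median log2 deviation of each array from the 12-array mean of each probe set, for all 95 probe sets, each complex and all 18625 probe sets tested; points are arrays and bars are group means. One diabetic 10-week array lies at 0.15 over the 95 probe sets and the others at 0.027.

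Groups did not overlap for 14 probe sets at 10 weeks, all higher in diabetic rats (14.7%, against 7.47% of all probe sets), and for none lower (9.52% of all). They came from all 5 complexes, and were named after their values were seen. In complex I they were Ndufa3, Ndufab1, Ndufb1, Ndufb10, Ndufb8, Ndufs6 and Ndufv1. In complexes II and III they were Sdhd, Uqcrc1, Uqcrfs1 and Uqcrh. In complexes IV and V they were Cox6a1, Atp5f1d and Atp5mpl. Ndufb8, an accessory subunit of the membrane arm of complex I, read 1080, 1268 and 1383 in nondiabetic and 2205, 1398 and 1676 in diabetic rats. Its log2 difference was 0.48 ± 0.20 (adjusted p = 0.413). Uqcrh, the hinge protein of complex III, read 13200, 14180 and 13100 against 14530, 14660 and 14630, a difference of 0.12 ± 0.073 (adjusted p = 0.606). The Rieske protein gene Uqcrfs1 read 12730, 12570 and 13050 against 13930, 13780 and 13600, a difference of 0.11 ± 0.081 (adjusted p = 0.676). The diabetic values of each of these lie above the nondiabetic ones, and none passed the test.

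At 10 weeks the 95% confidence interval lay within 1.5-fold either way for 83 of the 95 probe sets (87.4%), against 50.1% of all probe sets. At 20 weeks it lay within 1.5-fold for 82 (86.3%), against 47% of all. The width of an interval follows the SE, whose median was 0.0877 in the 95 and 0.184 in all probe sets. These shares thus describe precision as well as the size of the differences.

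In diabetes begun after puberty, 1 probe set of 95 passed, against 2.84% of all probe sets (1.62% lower). It was the main probe set of Atp5me, the ATP synthase e subunit, which sits at the membrane part where synthase dimers form. Atp5me read 9809, 8506 and 8782 in nondiabetic and 7197, 5247 and 6622 in diabetic 20-week rats. Every diabetic array was below every nondiabetic one, and the signal fell by 0.52 ± 0.12 on the log2 scale, 1.43-fold (adjusted p = 0.0452, limma). At 10 weeks it read 9994, 10720 and 10340 in nondiabetic and 9261, 12260 and 11720 in diabetic rats, and the groups overlap. The difference between the ages was 0.61 ± 0.17 (adjusted p = 0.466). The call is near the threshold: it was lost in 15 of 23 other settings, over all of which adjusted p ran from 0.0292 to 0.152, and the difference was -0.39 without diabetic 20-week replicate 2. A dim probe set for the same gene, at 73.2 to 180.9, gave 0.19 ± 0.34 at 20 weeks.

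Ndufa4l2, a hypoxia-induced relative of Ndufa4, showed the largest difference of the 95 at 20 weeks and missed the threshold. Ndufa4l2 read 138.7, 132.9 and 103.8 in nondiabetic and 51.0, 47.7 and 64.1 in diabetic rats, with no overlap. The log2 difference was -1.21 ± 0.35 (adjusted p = 0.0961), and -1.2 with adjusted p = 0.0379 when diabetic 10-week replicate 2 was left out. All 3 diabetic 20-week values lie under the brightness limit of 70.9, and the probe set passed that filter through the other groups, so the size of the difference and its p are uncertain. At 10 weeks it read 122.3, 95.9 and 156.5 against 128.2, 52.8 and 127.7, so that 1 diabetic array was low and the others were not. Ndufa4 itself, with means of 15560 ± 2060 and 14680 ± 786 (SD, n = 3) at 20 weeks, overlapped.

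**Figure D3:**
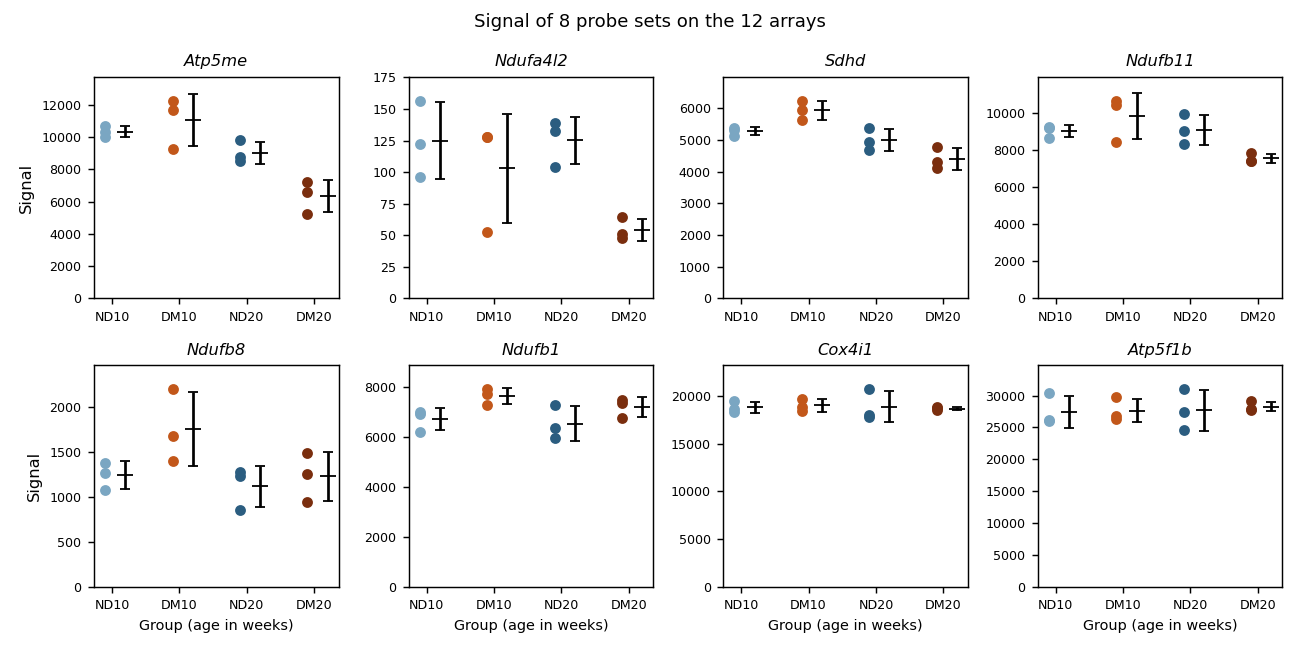
Signal of 8 probe sets on each array, with the group mean and SD beside the points, on linear axes that start at 0 and differ between panels; for Sdhd the dimmer of its 2 probe sets is drawn. Atp5me and Ndufa4l2 are lower in all 3 diabetic 20-week arrays than in the nondiabetic 20-week arrays, while Cox4i1 and Atp5f1b overlap in every group.

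On the deposited scale 47 of the 95 were higher at 20 weeks, with a median of -0.0046 against -0.0043 for all probe sets. With quantile normalization 30 were higher, 3 of 14 in complex IV (median -0.084) and 3 of 20 in complex V (median -0.074), and with median centring 36 were. Groups did not overlap for 6 higher and 6 lower (6.32% each), against 10.1% and 10.9% of all probe sets. Ndufb11, a membrane-arm subunit of complex I, read 8337, 9950 and 9045 in nondiabetic and 7414, 7847 and 7410 in diabetic rats, a difference of -0.27 ± 0.094 (adjusted p = 0.171). Cox7a2l read 4042, 3545 and 3897 against 4211, 4105 and 4466, a difference of 0.16 ± 0.070 (adjusted p = 0.282). Sdhd, a membrane anchor of complex II, gave 0.17 ± 0.079 at 10 weeks and -0.19 ± 0.079 at 20 weeks by its dimmer probe set. The brighter Sdhd probe set gave 0.10 ± 0.068 and 0.063 ± 0.068, so the pair do not show the same pattern.

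**Figure D4:**
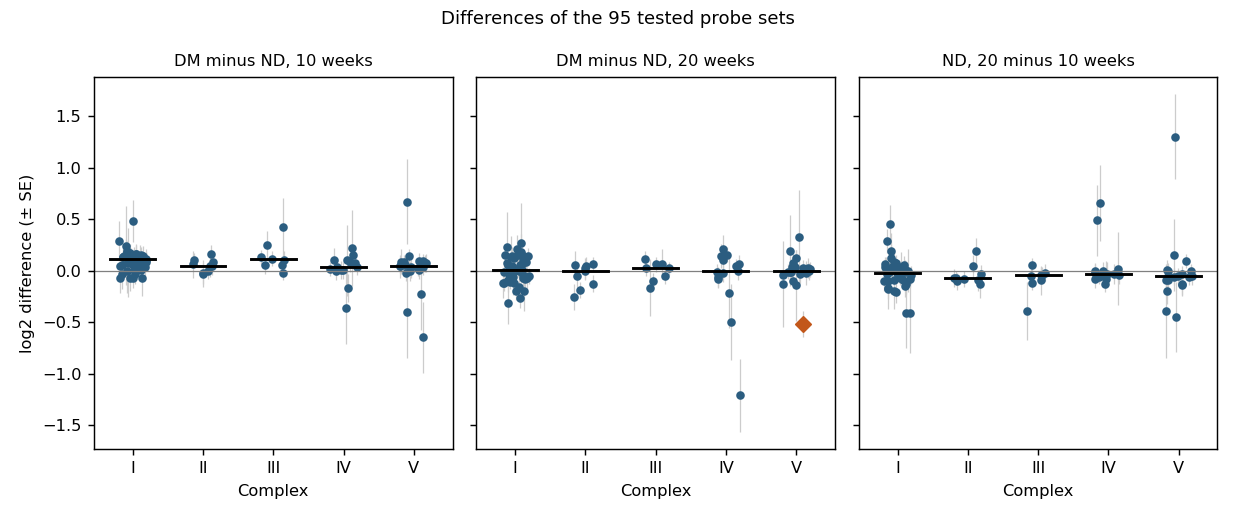
log2 difference with its SE for each of the 95 probe sets by complex, in diabetes at 10 weeks, diabetes at 20 weeks and age in nondiabetic rats; black bars are medians and the diamond is the probe set past the threshold. On the deposited scale medians lie above 0 in all 5 complexes at 10 weeks (with quantile normalization those of IV and V fall below 0), and Atp5me is the diamond at 20 weeks.

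No probe set passed the test of a difference between the 2 ages' responses to diabetes, nor did any of the 18625 (0%). At an unadjusted p under 0.05 there were 5 of 95 (5.26%), against 7.95% of all. The signed log2 difference at 10 weeks minus that at 20 weeks was above 0 in 68 of 95, with a median of 0.071 against -0.0041. Over both ages together no probe set passed, against 4.47% of all, and 7 (7.37%) had an unadjusted p under 0.05, against 17.9% of all. Ndufb1, an accessory subunit of complex I, was the nearest in that complex, at 0.16 ± 0.061 (adjusted p = 0.171). Ndufs6, whose promoter is shown above, gave 0.14 ± 0.055 (adjusted p = 0.201).

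Age alone gave no call in nondiabetic rats, in the 95 or in all probe sets (0%). At an unadjusted p under 0.05 there were 3 of 95, against 8.61% of all, and all 3 were higher at 20 weeks. Both probe sets of Ndufa7, an accessory subunit of complex I, were among them. They gave 0.29 ± 0.12 and 0.45 ± 0.19 (adjusted p = 0.551 and 0.560, limma). Of the 95, 29 were higher at 20 than at 10 weeks, with a median of -0.032 against 0.0051, and 40 were higher with median centring. Groups did not overlap for 4 higher (6.36% of all probe sets) and 3 lower (5.7% of all). All 5 probe sets of the complex II subunits Sdha to Sdhd were lower at 20 weeks, also under both other scalings, with a median of -0.076, and none passed the test. Nondiabetic 20-week replicate 1 read lowest of its group in all 5, and without it the Sdhc difference was -0.015. Over the complex II probe sets this array lay at -0.14, and replicates 2 and 3 at 0.023 and 0.066. The nondiabetic 10-week arrays lay at 0.00075, 0.047 and 0.042. A dim probe set for Atp5if1, the inhibitor of ATP synthase run in reverse, read 172.5, 47.9 and 42.7 at 10 weeks and 172.6, 175.7 and 175 at 20 weeks, a difference of 1.3 ± 0.41 (adjusted p = 0.490). Its main probe set gave -0.053 ± 0.077. The GAPDH control's ratio of 3' to 5' signal is a measure of RNA quality. Over all 12 arrays, diabetic ones included, it was higher at 20 weeks by 0.204 on the log2 scale (p = 0.013, exact permutation test, two-sided). In nondiabetic arrays alone the ratio overlapped, at 1.41 to 1.46 at 10 weeks and 1.42 to 2.09 at 20 weeks, with 2.09 in replicate 1. Its part in the age values was not tested, and between diabetic and nondiabetic rats it differed by 0.0187 (p = 0.879, exact permutation test).

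Probe sets of genes with the NRF-1 core (26) had a median log2 difference in diabetes of 0.078 at 10 weeks and -0.020 at 20 weeks, and those without (62) 0.086 and 0.022. With age in nondiabetic rats the NRF-1 medians were -0.055 with and -0.023 without. For the ETS core (28 with, 60 without) the medians were 0.063 and 0.086 at 10 weeks, 0.022 and -0.0058 at 20 weeks, and -0.078 and -0.025 with age. For the YY1 core (12 with, 76 without) they were 0.11 and 0.078 at 10 weeks, 0.11 and -0.0079 at 20 weeks, and -0.014 and -0.033 with age. These are descriptions with no test.

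Some genes around the chain passed the test. Of 17 genes for electron entry and ubiquinone, 1 rose and 2 fell at 20 weeks, where 2.84% of all probe sets passed in either direction. Etfb, a subunit of the flavoprotein that carries electrons from fatty acid oxidation, rose by 0.46 ± 0.11 (adjusted p = 0.0446). The ubiquinone-binding proteins Coq10b and Coq10a fell by 0.79 ± 0.085 (adjusted p = 0.000911) and 0.55 ± 0.12 (adjusted p = 0.0347). Over both ages Etfdh, Etfb and Coq8a rose, by 0.34, 0.33 and 0.40, and Coq10b fell by 0.53, where 4.47% of all probe sets passed. Among 18 regulators of mitochondrial biogenesis none passed at either age, and over both ages 1 did, the deacetylase Sirt3, at 0.48 ± 0.098 (adjusted p = 0.0165). A count of 1 in 18 is near the 4.47% of all probe sets and is no result about that list. Of 17 genes of mitochondrial quality control and fusion, Mfn1, which fuses outer membranes, rose at 20 weeks by 0.54 ± 0.099 (adjusted p = 0.0146), the only one of the 17 past the threshold at that age, against 2.84% of all probe sets. Over both ages Mfn1 and Pink1 rose, 2 of 17, against 4.47%. None of 32 assembly factors and partners outside the symbol rule, and none of 12 Krebs cycle genes, passed in any comparison, where at most 4.47% of all probe sets did. The Krebs cycle median at 10 weeks was 0.090, with 9 of 12 higher, against -0.021 and 46.3% for all probe sets. At 20 weeks it was -0.026, with 3 of 12 higher, against -0.0043 and 49.3%. This list was not followed under the other scalings.

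Markers of other cells moved with some groups. At 10 weeks summed markers of collecting duct principal cells were 7913 to 9553 in nondiabetic and 9932 to 13170 in diabetic arrays, with Aqp2 higher by 0.68 (adjusted p = 0.0433, limma). A sum leans on its brightest genes, and the median difference of the 5 was 0.17, with 4 higher. At 20 weeks that list split: only Aqp2 was higher, by 0.41 (adjusted p = 0.106, limma), and the median was -0.11. Summed intercalated cell markers went the other way at 10 weeks, 3264 to 3883 in nondiabetic and 2392 to 3168 in diabetic arrays. That list splits too: Slc26a4 and Atp6v1b1 were lower by 0.70 and 0.42, and the other 2 of 4 tested were higher. At 20 weeks summed podocyte markers were 4945 to 5427 in nondiabetic and 4038 to 4487 in diabetic arrays, and endothelial markers 8260 to 9049 and 7060 to 7740. Summed distal convoluted tubule markers were higher in diabetic arrays at 20 weeks, 12610 to 14720 against 10850 to 11550, but the list splits. Of 2 tested, Calb1 was higher by 0.50 and Slc12a3 lower by 0.53, with a median of -0.016, and neither passed the test. Summed fat markers were higher in diabetic arrays at 20 weeks, 2473 to 3186 against 1841 to 2258. The proximal tubule marker Slc13a3 fell by 0.44 at 20 weeks, 1 of 9 in its list. Their part in the values above was not tested, and in whole cortex fewer cells of a type and less RNA per cell cannot be told apart.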

How the data were processed

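RNA of rat kidney cortex was read on 12 1-colour arrays, 3 per group. The authors deposited signal intensity values made with GCOS, per the submitters' processing notes; version and settings: not given in the sources used here. The 2% trimmed mean is the same on every array (500.2), so the values are already scaled. Signals below 1 were set to 1 and log2 taken. Control probe sets and the dimmest 40% were left out (geometric mean signal under 70.9). limma 3.58.1 (R 4.3.3) fitted 4 group means with an intensity trend, and Benjamini-Hochberg adjustment ran over 18625 probe sets. Differences are log2 ± SE. The number of arrays limits the precision. The fit was tested on simulated data.

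The members, lists and tests were chosen with earlier results of these data known. Genes named in the text were those called, the 2 smallest p-values per complex and comparison, and fixed catalytic subunits and isoforms; others are said to be chosen later. Symbols come from the array annotation, updated through RefSeq gene IDs, and promoters from RefSeq (GRCr8). Scaling, filter, offset, variance, replicate block and left-out arrays were varied.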

Additional observations from a re-analysis of the deposited data

How the results depend on the processing

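Over 23 other settings, 41 values of 27 probe sets kept their direction wherever they were fitted, while 15 alternative values lost their call and 1 gained one. These 41 belong to called probe sets and to the 2 smallest p-values per complex and comparison, so a steady direction is partly built in. Fixed subunits with differences near 0, such as Cox4i1, were not followed in this way. The 1 called probe set at 20 weeks, Atp5me, became 0 with no filter on dim probe sets, no intensity trend, array weights, the replicate block, only the 2 groups compared, and (chosen after seeing the data) both doubted arrays left out. Those arrays are the one labelled with a vehicle pellet and the one with the highest GAPDH ratio (2.09). With each array left out in turn the count ran from 0 to 2. The cause was not tested. Medians and counts over the genes and by complex under other settings were also chosen after seeing the data. With quantile normalization 30 of 95 were higher at 20 weeks and 41 over both ages, where the median was -0.026. Median centring gave a median of 0.19 at 10 weeks and 0.21 for the difference between ages, with all probe sets shifted to 0.089 and 0.14. Medians without 1 array ran from 0.030 to 0.10 at 10 weeks, from -0.038 to 0.041 at 20 weeks, from 0.023 to 0.10 for the difference between ages, from -0.067 to -0.013 for age and from 0.016 to 0.051 over both ages. Counts higher ran from 60 to 85, 37 to 64, 55 to 80, 23 to 41 and 53 to 72 in the same order. Replicate numbers do not pair the arrays: deviations of 18 same-number pairs correlated from -0.15 to 0.15, with 4 over 0.1. The replicate block left the other 4 comparisons at 0 calls. With 3 arrays a group, small shifts of single genes are not detectable.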
